A study of Mus musculus with 4 samples.

Results

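Cyclin-dependent kinase (CDK) inhibitors, Btg genes and D cyclins make up a set of 8 genes that hold back or permit entry into the cell cycle. The set consists of the Cip/Kip inhibitors Cdkn1a (p21) and Cdkn1b (p27), the INK4 inhibitors Cdkn2c (p18) and Cdkn2d (p19), Btg1 and Btg2, and the D cyclins Ccnd2 and Ccnd3. The genes were taken by symbol, and all 8 were among the 11027 genes listed in the deposited tables. RNA-seq was measured in CD4+ T cells of wild-type C57BL/6 mice aged 7 to 8 weeks, from spleen and lymph nodes. Activation and retroviral infection of the naive cells took place under neutral conditions, and GFP-positive cells were sorted and put in culture. The 4 groups, of 1 library each, were Tfh-like culture with the Tox2 virus, Tfh-like culture with the GFP-only virus, Th0 culture with the Tox2 virus and Th0 culture with the GFP-only virus. In all 4 cultures IL-2, IL-4 and IFN-gamma were neutralised by antibodies (IL-2 is a cytokine that drives T-cell division). The Tfh-like cultures also held IL-6. Tox2 came from a viral vector in these cells, so its level is a forced one. Nothing in the labels says how many mice each library came from.

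D cyclins bind CDK4 and CDK6 and start the phosphorylation of the retinoblastoma protein, which frees E2F factors to switch on the genes of DNA replication. INK4 proteins bind CDK4 and CDK6 and keep D cyclins off them. Cip/Kip proteins bind cyclin-CDK complexes, above all those of CDK2. Cdkn1a is a classical target of p53, and p27 is kept high in resting lymphocytes and is destroyed through the Skp2 ubiquitin ligase when they divide. Btg1 and Btg2 recruit the CCR4-NOT deadenylase to messenger RNAs, and in mice the pair together keeps naive T cells quiescent.

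The promoter windows of Cdkn1a, Cdkn1b, Btg2 and Ccnd3 are shown because the first 3 of these genes changed with the Tox2 virus and Ccnd3 is the D cyclin that changed with the culture. Each window is the 250 bases before a transcription start in RefSeq (GRCm38.p6), and windows were matched for 7 of the 8 genes. They are chr17:29090729-29090978 (plus strand, the first of a pair of Cdkn1a starts), chr6:134920151-134920400 (plus strand), chr1:134079156-134079405 (minus strand) and chr17:47504801-47505050 (plus strand, the first of a pair of Ccnd3 starts). Capitals mark matches on either strand to 6 motifs: GGGCGG (GC box), GTAAACA (FOXO), TTCNNNGAA (STAT), CACGTG (E-box), TTTCCCGC (E2F) and the p53 half-site.
Cdkn1a: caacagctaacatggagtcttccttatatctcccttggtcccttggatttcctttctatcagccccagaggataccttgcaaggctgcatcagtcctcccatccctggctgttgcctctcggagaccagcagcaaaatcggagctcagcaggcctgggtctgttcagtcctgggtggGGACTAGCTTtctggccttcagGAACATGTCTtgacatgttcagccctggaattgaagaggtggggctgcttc
Cdkn1b: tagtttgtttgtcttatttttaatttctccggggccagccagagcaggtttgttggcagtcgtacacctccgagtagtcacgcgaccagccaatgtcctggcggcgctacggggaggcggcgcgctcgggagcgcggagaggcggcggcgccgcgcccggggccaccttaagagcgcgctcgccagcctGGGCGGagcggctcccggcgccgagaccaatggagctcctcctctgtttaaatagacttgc
Btg2: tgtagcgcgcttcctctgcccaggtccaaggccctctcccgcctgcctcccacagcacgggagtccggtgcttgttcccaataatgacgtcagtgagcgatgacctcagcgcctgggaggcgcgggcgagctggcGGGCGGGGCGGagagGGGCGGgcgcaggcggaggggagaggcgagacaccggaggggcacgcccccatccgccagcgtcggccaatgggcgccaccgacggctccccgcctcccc
Ccnd3: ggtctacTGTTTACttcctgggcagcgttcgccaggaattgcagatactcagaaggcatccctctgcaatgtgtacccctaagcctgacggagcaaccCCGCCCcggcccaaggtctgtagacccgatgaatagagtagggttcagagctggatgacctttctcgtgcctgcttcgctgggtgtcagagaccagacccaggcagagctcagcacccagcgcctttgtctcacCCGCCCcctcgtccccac

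The Cdkn1a window held 2 matches to the p53 half-site, at bases -73 to -64 and -51 to -42 from the start, and no GC box. The window of the other Cdkn1a start, not shown, held 2 GC boxes and 0 p53 half-sites, and the Cdkn2d window, not shown, held 1 such half-site. Such a half-site was present in 7.13% of all 32841 promoter windows of the same length and in 5.69% of the 11355 windows of listed genes. The Cdkn1b window held 1 GC box, and the Btg2 window held 3, the first of which overlaps the next by a base. The Ccnd3 window held 2 GC boxes and a FOXO match at -243 to -237, and the Btg1 window, not shown, also held a FOXO match. A GC box was present in 32.7% of all windows and in 58.3% of those of listed genes, and a FOXO match in 3.17% and 2.12%. None of the 10 windows of the set held a STAT, E-box or E2F match as spelled here. These matches are letters in a window and were not tested for binding. In GENCODE M21 (GRCm38) the genes lie at chr17:29090976-29100727 (Cdkn1a, plus strand), chr6:134920401-134925513 (Cdkn1b, plus), chr4:109660876-109667189 (Cdkn2c, minus) and chr9:21288410-21291407 (Cdkn2d, minus). Btg1 lies at chr10:96617006-96622809 (plus), Btg2 at chr1:134075170-134079120 (minus), Ccnd2 at chr6:127125162-127152193 (minus) and Ccnd3 at chr17:47505051-47599691 (plus).

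Total counts per library lay between 13015283 and 13673774. Tox2 had 32246 counts with its virus and 851 with GFP in Tfh-like, and 35297 with its virus and 144 with GFP in Th0, which follows the virus labels. The T-cell markers Cd3d, Cd3e, Cd3g, Cd4 and Cd28 summed to 38486 to 48431 counts per library. Of the other cell types' markers, 1 of 4 B-cell genes (10 to 24 counts), 2 of 5 myeloid genes (17 to 39 counts in sum), 1 of 3 erythroid genes (1 to 10 counts) and 1 of 2 CD8 genes (Cd8b1, 127 to 206 counts) were listed. Of 3 NK-cell genes, Nkg7, which activated T cells also express, was listed at 305 counts with Tox2 and 854 with GFP in Tfh-like, and at 157 with Tox2 and 359 with GFP in Th0. Every listed gene reached at least 0.658 CPM (counts scaled to library size) in 2 libraries or more, so a gene that is not listed may be low or left out for another reason and has no value here.

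All 8 genes were well expressed. In FPKM, the deposited level per transcript length, they stood above 67.3% to 98.5% of the listed genes in every library. With 573 to 7785 counts per gene and library, counting error was small. Cdkn1a, Cdkn2d and Btg2 reached the highest levels of the set, with 178, 151 and 150.3 FPKM in their highest libraries. Cdkn2c was the lowest of the 8 in 2 libraries, both Tfh-like, and Ccnd3 in the other 2. Cdkn1a varied most among the libraries, with a highest level 4.36-fold above its lowest, and Ccnd2 least, with 1.25-fold.

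**Figure D1:**
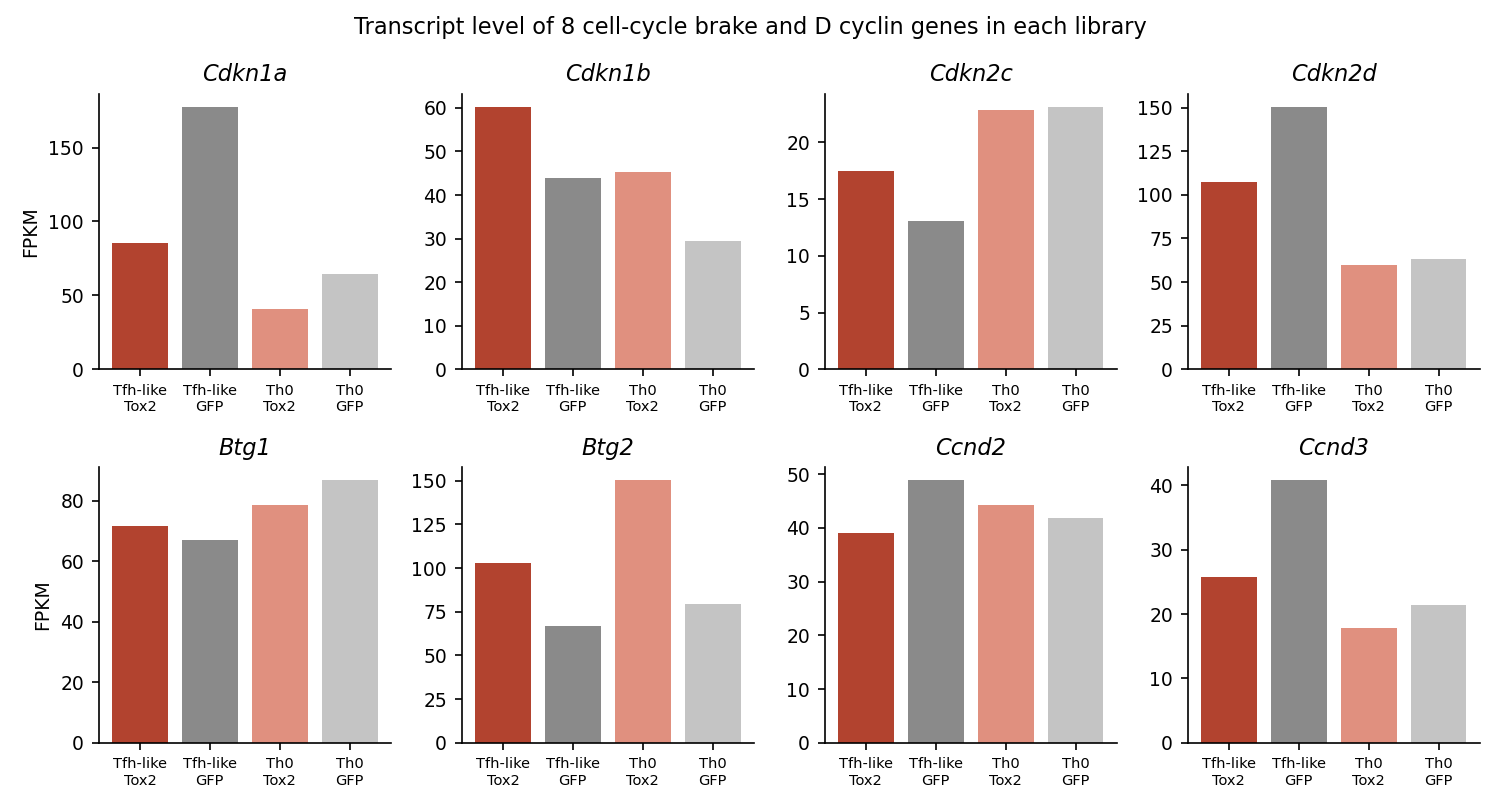
FPKM of each gene (vertical axis, from 0) in the 4 libraries (bars; 1 library per group, so no error bar). Cdkn1a, Cdkn2d and Ccnd3 are highest in Tfh-like with GFP, Btg2 is highest in Th0 with Tox2, and Btg1 and Ccnd2 vary least, by 1.30-fold and 1.25-fold.

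The first comparison asked which of these genes differed with forced Tox2 in both cultures. Among the brakes of the cell cycle, Cdkn1a fell with the Tox2 virus and Cdkn1b and Btg2 rose. Cdkn2c, Cdkn2d, Btg1, Ccnd2 and Ccnd3 did not pass the test. In bulk RNA, fewer cells of a type (dividing cells, for example) and less of a transcript per cell cannot be told apart. The test was edgeR's quasi-likelihood test in an additive model of culture and virus over the 4 libraries, with Benjamini-Hochberg adjustment over 10960 genes and a threshold of 0.05. Its spread rests on 1 residual degree of freedom, moderated across genes. That residual is the difference of the Tox2 fold between the cultures, so a fold that differs between them counts as spread. With 1 library per group the p-values cannot include variation among replicates. Of the 8 genes 3 passed (2 higher, 1 lower), where 6.81% of all tested genes did (4.07% higher and 2.74% lower). The set was chosen with earlier results of these data known, so its share beside that of all genes is a description. The median log2 fold of the 8 was -0.09, against 0.0015 over all tested genes.

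Cdkn1a, which encodes p21, had 85.3 FPKM with Tox2 and 178 FPKM with GFP in Tfh-like, and 40.7 FPKM with Tox2 and 64.6 FPKM with GFP in Th0. Both Tox2 libraries were thus below the GFP library of their own culture, while the Tfh-like library with Tox2 stood above the Th0 library with GFP. The log2 fold over both cultures was -0.88 (SE 0.12, edgeR adjusted p = 0.0150). In single pairs of libraries the log2 fold of scaled CPM was -1.07 in Tfh-like (95% counting interval -1.13 to -1.004) and -0.69 in Th0 (-0.79 to -0.60). These intervals cover counting error only.

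Cdkn1b, which encodes p27, moved the other way. It had 60.3 FPKM with Tox2 and 43.9 FPKM with GFP in Tfh-like, and 45.2 FPKM with Tox2 and 29.5 FPKM with GFP in Th0. The Tox2 library was the higher one in each culture, and the 2 middle libraries, Th0 with Tox2 and Tfh-like with GFP, were close. The log2 fold over both cultures was 0.52 (SE 0.10, edgeR adjusted p = 0.0351), a 1.43-fold rise. The pair values were 0.45 in Tfh-like (0.38 to 0.52) and 0.59 in Th0 (0.51 to 0.67).

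Btg2, the inducible Btg gene, had 103 FPKM with Tox2 and 66.6 FPKM with GFP in Tfh-like, and 150.3 FPKM with Tox2 and 79.3 FPKM with GFP in Th0. Both Tox2 libraries lay above both GFP libraries. It rose by 0.76 on the log2 scale over both cultures (SE 0.11, edgeR adjusted p = 0.0172), with 0.62 in Tfh-like (0.56 to 0.69) and 0.89 in Th0 (0.84 to 0.95). Its relative Btg1 had 71.6 FPKM with Tox2 and 66.9 FPKM with GFP in Tfh-like, and 78.5 FPKM with Tox2 and 86.8 FPKM with GFP in Th0. Btg1 did not pass (log2 fold -0.04, SE 0.11, edgeR adjusted p = 0.842), and its pair folds lay on opposite sides of 0.

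Ccnd3, cyclin D3, had 25.7 FPKM with Tox2 and 40.8 FPKM with GFP in Tfh-like, and 17.8 FPKM with Tox2 and 21.4 FPKM with GFP in Th0. It was lower with Tox2 in both cultures, by -0.68 (-0.74 to -0.62) in Tfh-like and -0.30 (-0.37 to -0.22) in Th0 (-0.46 with the length trend removed), but missed the threshold (log2 fold -0.49, SE 0.12, edgeR adjusted p = 0.0653). It passed in 3 of 8 alternatives: with DESeq2 (adjusted p = 0.0476), with scaling by the sum of listed counts in edgeR (0.0278) and with the length trend removed in edgeR (-0.61, adjusted p = 0.0436). Exons of Ccnd3 and of Bysl, on the opposite strand, overlap in GENCODE M21, and without a stated strand setting their reads cannot be told apart there. Bysl had 28.5 CPM with Tox2 and 44.6 CPM with GFP in Tfh-like, and 37.1 CPM with Tox2 and 60.5 CPM with GFP in Th0. Its part in the Ccnd3 values was not tested. Ccnd2 and Cdkn1a also overlap annotated genes on the opposite strand, for which no counts were used here.

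Ccnd2, cyclin D2, had 39.1 FPKM with Tox2 and 48.9 FPKM with GFP in Tfh-like, and 44.3 FPKM with Tox2 and 41.9 FPKM with GFP in Th0. These are the narrowest levels of the set, and no direction held in both cultures (log2 fold -0.14, SE 0.12, edgeR adjusted p = 0.510). Ccnd1, the remaining D cyclin, had 7 to 13 counts per library and was not tested.

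Of the INK4 pair, Cdkn2d had 107 FPKM with Tox2 and 151 FPKM with GFP in Tfh-like, and 59.9 FPKM with Tox2 and 63.0 FPKM with GFP in Th0. The pair of Th0 libraries was nearly level, at -0.10 (-0.20 to -0.00063), while the Tfh-like pair gave -0.49 (-0.57 to -0.42). Over both cultures it did not pass (-0.30, SE 0.12, edgeR adjusted p = 0.182). Cdkn2c had 17.4 FPKM with Tox2 and 13.1 FPKM with GFP in Tfh-like, and 22.8 FPKM with Tox2 and 23.1 FPKM with GFP in Th0, and did not pass (0.17, SE 0.13, edgeR adjusted p = 0.449). The Th0 libraries held 1058 counts of Cdkn2c with Tox2 and 1057 with GFP.

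Between single libraries, genes counted as 2-fold apart had a log2 fold of 1 or more in either direction and a counting interval without 0. With Tox2 in Tfh-like, 1 of the 8 genes was (Cdkn1a, lower), where 4.75% of all genes were 2-fold apart (2.86% higher and 1.9% lower). With Tox2 in Th0, 0 of 8 were, where 4.74% of all genes were 2-fold apart (3.18% higher and 1.56% lower). These are descriptions of single libraries, so no test or other tool applies to them. The medians of the 8 were -0.12 in Tfh-like and -0.07 in Th0, against -0.0014 in Tfh-like and -0.00080 in Th0 over all tested genes.

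**Figure D2:**
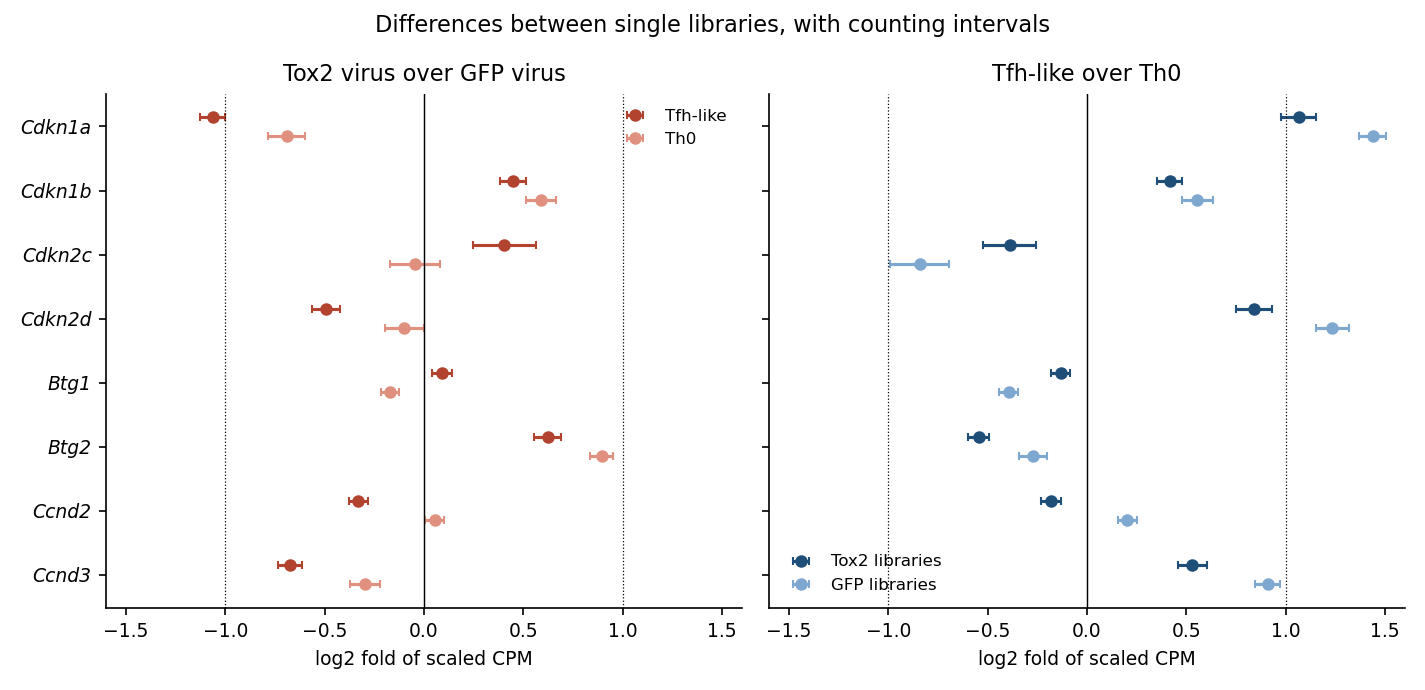
Log2 fold of scaled CPM (horizontal axis) of each gene between single libraries, with the 95% counting interval as bars and dotted lines at a 2-fold difference; left, Tox2 over GFP in each culture; right, Tfh-like over Th0 with each virus. Cdkn1a lies left of 0 and Cdkn1b and Btg2 right of 0 in both cultures with Tox2, and Cdkn1a, Cdkn1b, Cdkn2d and Ccnd3 lie right of 0 with both viruses in Tfh-like.

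The second comparison asked which of the genes differed in the Tfh-like culture, which differs from Th0 by IL-6, over both viruses. Cdkn1a, Cdkn2d, Ccnd3 and Cdkn1b rose, and Cdkn2c and Btg2 fell. Of the 8 genes 6 passed (4 higher, 2 lower), where 24.2% of all tested genes did (1564 or 14.3% higher and 1092 or 9.96% lower). That split depends on scaling: it was 1500 higher and 1649 lower with scaling by the sum of listed counts, and 1322 and 1548 with the length trend removed. The median log2 fold of the 8 was 0.25, against -0.0079 over all tested genes. Here too the set was chosen with earlier results known, so these shares are a description.

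The INK4 genes moved in opposite directions. Cdkn2d rose by 1.04 on the log2 scale (SE 0.13, edgeR adjusted p = 0.00234), at 0.84 with Tox2 (0.75 to 0.93) and 1.24 with GFP (1.15 to 1.32). Cdkn2c fell by 0.61 (SE 0.13, edgeR adjusted p = 0.0195), with -0.39 with Tox2 (-0.53 to -0.25) and -0.84 with GFP (-0.99 to -0.69). Every Tfh-like library was above both Th0 libraries for Cdkn2d and below both for Cdkn2c.

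Both Cip/Kip genes rose. Cdkn1a rose by 1.26 (SE 0.12, edgeR adjusted p = 0.00115), with 1.07 with Tox2 (0.98 to 1.16) and 1.44 with GFP (1.37 to 1.51). Cdkn1b rose by 0.49 (SE 0.10, edgeR adjusted p = 0.0165), with 0.42 with Tox2 (0.35 to 0.48) and 0.56 with GFP (0.48 to 0.63). For p27 the Tfh-like culture and the Tox2 virus thus both went with a higher level, and the library that had both was the highest of the 4. For p21 the Tfh-like culture went with a higher level and the Tox2 virus with a lower one.

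Btg2 fell by 0.41 (SE 0.11, edgeR adjusted p = 0.0393), with -0.54 with Tox2 (-0.60 to -0.49) and -0.27 with GFP (-0.34 to -0.20). Btg1 was lower in Tfh-like with both viruses, by -0.13 (-0.18 to -0.08) with Tox2 and -0.39 (-0.44 to -0.35) with GFP, but did not pass (-0.26, SE 0.11, edgeR adjusted p = 0.129). Of the D cyclins, Ccnd3 rose by 0.72 (SE 0.12, edgeR adjusted p = 0.00815), with 0.53 with Tox2 (0.46 to 0.60) and 0.91 with GFP (0.85 to 0.97). Bysl, whose exons overlap those of Ccnd3, fell with the Tfh-like culture, by 0.41 (SE 0.10, edgeR adjusted p = 0.0330). Ccnd2 did not pass (0.01, SE 0.12, edgeR adjusted p = 0.958), with -0.18 (-0.23 to -0.13) with Tox2 and 0.20 (0.16 to 0.25) with GFP. The value with GFP was 0.11 with sum scaling and 0.098 with the length trend removed.

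In single pairs, 1 of the 8 genes was 2-fold higher in Tfh-like with Tox2 (Cdkn1a), where 9.43% of all genes were 2-fold apart (6.56% higher and 2.86% lower). With the length trend removed, the log2 fold of Cdkn1a in that pair was 0.91 and 0 genes of the set were called. With GFP, 2 of the 8 were (Cdkn1a and Cdkn2d, both higher), where 10.9% of all genes were (7.78% higher and 3.11% lower). The medians of the 8 were 0.14 with Tox2 and 0.38 with GFP.

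The difference of the Tox2 fold between the cultures was described for each gene without a test, since the layout leaves no degree of freedom for one. It was below 2-fold for all 8 genes, where 3.39% of all tested genes differed by at least 2-fold. The differences, Tfh-like minus Th0 on the log2 scale, ran from -0.39 for Cdkn2d (-0.52 to -0.27) to 0.45 for Cdkn2c (0.25 to 0.65). For Ccnd2, Ccnd3 and Cdkn1a they were -0.38, -0.38 and -0.37. For Cdkn1b, Btg2 and Btg1 they were -0.14, -0.27 and 0.26. The same value is also the difference of the culture fold, Tox2 minus GFP: for Cdkn1a, Cdkn1b, Cdkn2d and Ccnd3 the Tfh-like level over Th0 was smaller in the Tox2 libraries than in the GFP libraries.

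Within each pair of related genes, the balance shifted between the libraries. The ratio of Cdkn1a to Cdkn1b in FPKM was 1.42 (95% counting interval 1.35 to 1.48) in Tfh-like with Tox2 and 4.05 (3.88 to 4.22) in Tfh-like with GFP. In Th0 it was 0.901 (0.849 to 0.957) with Tox2 and 2.19 (2.07 to 2.32) with GFP. p27 transcripts outnumbered p21 transcripts per length in Th0 with Tox2 and in no other library. The ratio of Cdkn2d to Cdkn2c was 6.16 (5.69 to 6.68) in Tfh-like with Tox2 and 11.5 (10.53 to 12.6) in Tfh-like with GFP. In Th0 this ratio was 2.62 (2.43 to 2.84) with Tox2 and 2.72 (2.52 to 2.94) with GFP, which overlap within counting error.

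The ratio of Btg2 to Btg1 in FPKM was 1.44 (1.39 to 1.495) with Tox2 and 0.995 (0.951 to 1.04) with GFP in Tfh-like, and 1.92 (1.85 to 1.98) with Tox2 and 0.914 (0.879 to 0.951) with GFP in Th0. Btg2 exceeded Btg1 per length in both Tox2 libraries, was level with it within counting error in Tfh-like with GFP and lay below it in Th0 with GFP. The ratio of Ccnd3 to Ccnd2 in FPKM was 0.657 (0.630 to 0.684) with Tox2 and 0.834 (0.806 to 0.864) with GFP in Tfh-like, and 0.401 (0.383 to 0.419) with Tox2 and 0.511 (0.490 to 0.533) with GFP in Th0. Ccnd2 was thus the main D cyclin transcript in all 4 libraries. Summed over the 4 CDK inhibitors of the set, the level was 270.5 FPKM with Tox2 and 385 FPKM with GFP in Tfh-like, and 169 FPKM with Tox2 and 180.2 FPKM with GFP in Th0. Cdkn1a made up 31.5% of that sum with Tox2 and 46.1% with GFP in Tfh-like, and 24.1% with Tox2 and 35.8% with GFP in Th0.

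**Figure D3:**
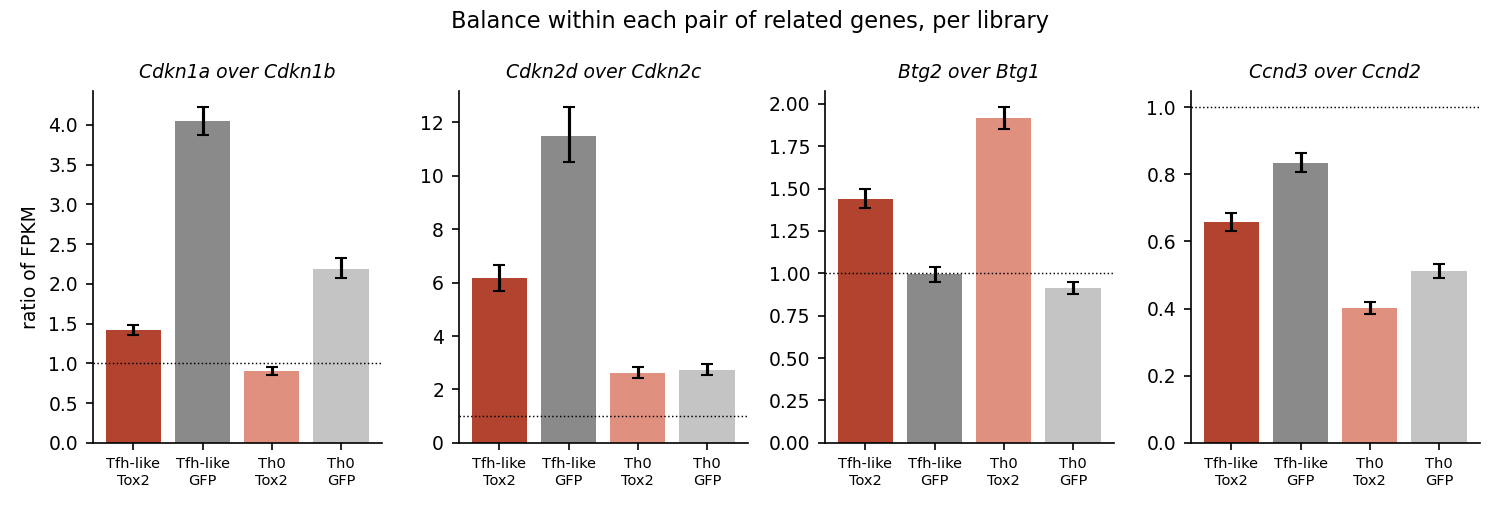
Ratio of FPKM (vertical axis, from 0) within 4 pairs of related genes in each library, with the 95% counting interval; the dotted line marks equal levels per length. Cdkn1a over Cdkn1b runs from 0.901 in Th0 with Tox2 to 4.05 in Tfh-like with GFP, and Btg2 over Btg1 lies above 1 in both Tox2 libraries.

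Genes whose pattern over the 4 libraries was most like a member were taken by the smallest Euclidean distance between centred log2 CPM, for the 5 members that differed by at least 2-fold between 2 libraries. They were Arhgdig, Gimap7 and Atp8b4 for Cdkn1a (distance 0.15 to 0.18), and Mmp15, Sccpdh and Errfi1 for Cdkn1b (0.031 to 0.079). For Cdkn2d they were Sertad1, Borcs6 and Tmem184b (0.045 to 0.070), for Btg2 Nfat5, Usp6nl and Serpinb6c (0.057 to 0.092), and for Ccnd3 Arhgef25, Pim3 and Fbxw9 (0.11 to 0.12). Serpinb6c had only 9 to 23 counts per library and Arhgef25 44 to 98. Arhgdig had 47 to 193 and Mmp15 79 to 163, so counting error is part of these distances. Nfat5, the factor of the osmotic stress response, had 3996 counts with Tox2 and 2439 with GFP in Tfh-like, and 5866 with Tox2 and 2982 with GFP in Th0. Among the members themselves, Cdkn2d and Ccnd3 were the closest pair (0.37) and Cdkn1a and Btg2 the farthest apart (2.33). With 4 libraries, likeness of this kind is a description.

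The partners of these genes were examined in lists. The members are included in those of the CDK inhibitors, the Btg/Tob family and the D cyclins, and in no other list. Over all tested genes, 4.07% rose and 2.74% fell with Tox2, and 14.3% rose and 9.96% fell in Tfh-like. Cdk6, a kinase partner of the D cyclins, fell with Tox2 and rose in Tfh-like, like p21. It had 1980 counts with Tox2 and 2948 with GFP in Tfh-like, and 735 with Tox2 and 1383 with GFP in Th0. Its log2 folds were -0.78 with Tox2 (SE 0.12, edgeR adjusted p = 0.0205) and 1.31 in Tfh-like (SE 0.12, edgeR adjusted p = 0.000962). Cdk4, the other kinase partner, had log2 folds of -0.32 and -0.16 and did not pass for either. In the list of D cyclins and their kinases, 0 of 4 tested genes rose and 1 fell with Tox2 (median -0.41), and 2 rose and 0 fell in Tfh-like (median 0.37).

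In the list of all Cip/Kip and INK4 inhibitors, 5 of 7 genes were tested. With Tox2 1 rose and 1 fell (median 0.0011), and in Tfh-like 3 rose and 1 fell (median 0.49). Every gene that passed in this list is a member of the set, so these counts repeat the results above. Cdkn1c (p57), the third Cip/Kip gene, had 16 to 31 counts per library and did not pass for either effect. In the Btg/Tob family 5 of 6 genes were tested: 1 rose and 0 fell with Tox2 (median 0.20), and 0 rose and 1 fell in Tfh-like (median -0.26). Btg2 was the one that passed in each case. Tob1 and Tob2, antiproliferative relatives of the Btg proteins, had log2 folds with Tox2 of 0.19 and -0.07 and in Tfh-like of -0.29 and -0.23.

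In the p53 list, which leaves out Cdkn1a, 20 of 22 genes were tested and 3 rose and 5 fell with Tox2 (median -0.12). The genes that fell were Plk2, Aen and Phlda3 (-0.84, -0.72 and -0.64), Bax, a pore-forming death effector (-0.61, SE 0.10, edgeR adjusted p = 0.0232), and Zmat3 (-0.60). Those that rose were Pmaip1, which encodes the death factor Noxa (0.94, SE 0.13), Sesn1 (0.64) and Trp53inp1 (0.55). In Tfh-like 4 of the 20 rose and 6 fell (median -0.21), and Trp53 itself was among those that fell (-0.53, SE 0.10, edgeR adjusted p = 0.0119). Fas, the death receptor, and Pmaip1 rose by 1.27 and 0.75 there, and Sesn1 and Bbc3, which encodes the death factor Puma, had folds of -1.15 and -0.74, both past the test. Bax, Zmat3, Sesn1 and Trp53inp1 with Tox2 and Trp53 in Tfh-like were named after their values were seen.

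In the list of quiescence factors and FOXO targets, all 18 genes were tested and 3 rose and 0 fell with Tox2 (median 0.17). Klf3 and Klf4, transcription factors linked to T-cell quiescence, rose by 1.16 (SE 0.13, edgeR adjusted p = 0.00829) and 0.99 (SE 0.14, edgeR adjusted p = 0.0146), and Pik3ip1, an inhibitor of PI3 kinase, by 0.77. Of the 18 genes, 14 had log2 folds above 0 with Tox2. Klf2 (-0.47, edgeR adjusted p = 0.21) and Slfn2 (-0.345, edgeR adjusted p = 0.17) went the other way without passing. So did Klf6 (-0.37, edgeR adjusted p = 0.091) and Foxp1 (-0.095, edgeR adjusted p = 0.59). The pair folds of Klf2 and Slfn2 with Tox2 were -0.92 and -0.59 in Th0, and 0.0064 and -0.094 in Tfh-like. Those of Klf6 and Foxp1 were -0.26 and -0.027 in Th0, and -0.47 and -0.16 in Tfh-like. In Tfh-like 4 of the 18 rose and 4 fell (median 0.12). S1pr1, the receptor for lymph node exit, and Klf6 rose by 1.22 and 1.18, and Klf3 and Klf2 fell, with folds of -1.41 and -1.09. Foxo1, a known activator of Cdkn1b, had log2 folds of 0.39 with Tox2 and 0.25 in Tfh-like and did not pass for either.

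Of the genes for the turnover of p27 and D cyclins, 16 were tested. The counts in this list and the next stand beside 6.81% of all tested genes that passed for Tox2 and 24.2% for the culture. With Tox2 0 rose and 2 fell (median -0.04): Cks1b, the cofactor that lets Skp2 bind p27, by -0.48 (SE 0.10, edgeR adjusted p = 0.0419), and Cks2 by -0.50. In Tfh-like 0 rose and 3 fell (median -0.08): Skp2 by -0.84 (SE 0.14, edgeR adjusted p = 0.00668), Cks2 by -0.46 and Cks1b by -0.35. Skp2 had a log2 fold of 0.15 with Tox2 and did not pass. Of the deadenylase list, which holds the partners of the Btg proteins, 14 genes were tested. In it 0 rose and 1 fell with Tox2 (median 0.04), which was Prmt1, a methyltransferase that binds Btg proteins (-0.49, SE 0.10, edgeR adjusted p = 0.0406). In Tfh-like Cnot7, a catalytic deadenylase subunit, rose by 0.41 and Prmt1 fell by 0.43 (median -0.14).

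Of the genes downstream of the D cyclins, more fell than rose in Tfh-like in the 3 lists described next, while few passed in either direction with Tox2. Among all tested genes 9.96% fell and 14.3% rose in Tfh-like, and 6.81% passed for Tox2 (2.74% fell and 4.07% rose). In the Rb and E2F list of 13 tested genes, 1 rose and 0 fell with Tox2 (median -0.08), which was Tfdp2, a partner of E2F factors (0.56, SE 0.11, edgeR adjusted p = 0.0342). In Tfh-like 0 rose and 5 fell (median -0.23): E2f8, E2f3, E2f7, Rbl1 and Tfdp1, by -0.53, -0.44, -0.44, -0.40 and -0.40. Of 11 cyclins, CDKs and Cdc25 phosphatases of S and M phase, 0 rose and 1 fell with Tox2 (median -0.25), which was cyclin E1, Ccne1 (-0.57, SE 0.11, edgeR adjusted p = 0.0321). In Tfh-like 0 rose and 6 fell (median -0.37), with Cdc25c at -0.71, Ccnf at -0.47, Ccnb1 at -0.42 and Cdc25a at -0.38. Of 18 proliferation markers 0 rose and 2 fell with Tox2 (median -0.33), Mcm3 by -0.56 and Mcm5 by -0.43. The median over all tested genes was 0.0015. Of the 18 markers 17 had log2 folds below 0 with Tox2. The exception was Mki67 (0.10, edgeR adjusted p = 0.57), with pair folds with Tox2 of 0.22 in Th0 and -0.0097 in Tfh-like. In Tfh-like 0 rose and 12 fell (median -0.46), with Tyms at -0.82, Mcm2 at -0.73, Mcm5 at -0.69 and Cdc6 at -0.68, and all 18 were below 0.

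In the Myc list 9 genes were tested. With Tox2 0 of 9 passed (median -0.02), in edgeR, where 4 had an unadjusted p under 0.05. DESeq2 also called 0 of 9, with 1 under 0.05, and limma-voom 0 of 9, with 4. Myc itself had log2 folds of -0.37 with Tox2 and 0.21 in Tfh-like. In Tfh-like 2 rose and 0 fell (median 0.20): Mxd1 and Mxi1, antagonists of Myc, by 1.11 (SE 0.26, edgeR adjusted p = 0.0252) and 0.82 (SE 0.15, edgeR adjusted p = 0.0108). The lists were read against 6.81% of all genes that passed for Tox2 and 24.2% for the culture. Against Th0, the Tfh-like libraries had lower levels of replication and mitosis genes and higher levels of Cdkn1a, Cdkn1b and Cdkn2d, while Cdkn2c was lower (-0.61). Btg2 was lower too (-0.41), and Ccnd3 (0.72) and Cdk6 (1.31) were higher. Within Tfh-like, the proliferation markers had a median log2 fold of -0.28 with Tox2 against GFP. Cdkn1a (-1.07), Cdkn2d (-0.49), Ccnd2 (-0.33) and Ccnd3 (-0.68) were also lower in that pair. Cdkn1b (0.45), Cdkn2c (0.40) and Btg2 (0.62) were higher. The part of the replication and mitosis genes in these values was not tested.

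**Figure D4:**
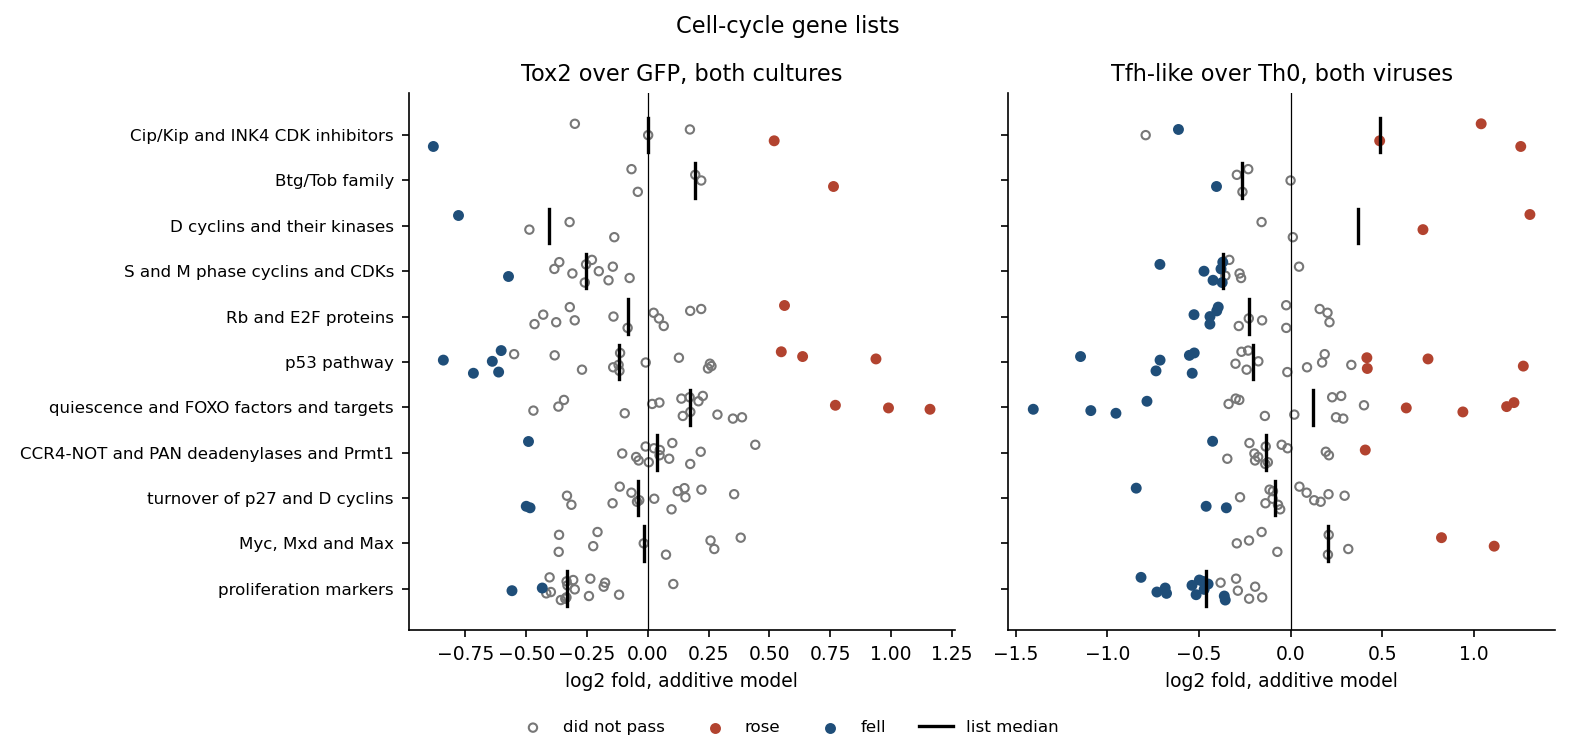
Log2 fold in the additive model (horizontal axis) of each tested gene (points) in 11 lists of cell-cycle genes, members included; left, Tox2 over GFP; right, Tfh-like over Th0. Filled points passed the edgeR test and the black line is the median of the list; the proliferation markers have medians of -0.33 and -0.46.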

How the data were processed

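RNA-seq gene counts and FPKM were deposited by the authors, 1 library per group. Trim Galore 0.4.4, Bowtie2, featureCounts, Subread, edgeR, MACS2 and the mm10 build are named in the submitters' processing notes, without roles. For the annotation and strandedness the labels and headers hold no statement. Per the file headers, the values are raw counts per gene and FPKM. The ratio of FPKM to count over genes gave the authors' library scaling.

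The deposited counts were fitted in R 4.3.3 with edgeR 4.0.16: TMM scaling, a filter keeping the 10960 of 11027 genes that reach 1 CPM in any library, an additive quasi-likelihood model of culture and virus with 1 residual degree of freedom, and Benjamini-Hochberg adjustment over all tested genes at 0.05. The common biological coefficient of variation was 0.105 with a median prior of 5.52 degrees of freedom. Pair folds are log2 folds of CPM after TMM scaling (prior count 2) with an exact 95% conditional binomial interval. DESeq2 1.42.0 and limma 3.58.1 were alternatives, as were other scalings, filters, prior counts and removal of a trend of fold with gene length. Total counts of 13015283 to 13673774 set the counting precision. Promoter windows came from RefSeq tables, and gene overlaps from GENCODE M21 on GRCm38.

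The 8 genes and the 11 lists were chosen with earlier results of these data known. Of each list, up to 4 further genes per effect were named, those past the test with the largest folds, plus the 3 genes most like each member that varied at least 2-fold. Cdk4, Cdkn1c, Tob1, Tob2, Foxo1, Bysl, Skp2 with Tox2, Klf2 with Tox2, Slfn2 with Tox2, Tfdp1 and Myc were named after their values were seen. So were Klf6, Foxp1, Mki67 and Mxd1 with Tox2.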

Additional observations from a re-analysis of the deposited data

Results flagged for a closer look

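Differences in direction between single libraries were seen for Btg1 and Ccnd2, with both counting intervals off 0. The Tox2 log2 fold of Btg1 was 0.09 in Tfh-like and -0.17 in Th0, a difference of 0.262. The Tox2 log2 fold of Ccnd2 was -0.33 in Tfh-like and 0.05 in Th0, a difference of -0.384. The same difference of -0.384 separates the Tfh-like log2 fold of Ccnd2 with Tox2 (-0.18) from that with GFP (0.20). With 1 library per group these differences were not tested. With the length trend removed, the Tox2 fold of Ccnd2 in Th0 was -0.12, so its directions no longer differed.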

How the results depend on the processing

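Between 3 and 4 of the 8 genes passed for Tox2 and 6 for the culture in every alternative tried. Over all genes, 746 were called for Tox2, against 1193 with scaling by the sum of listed counts, 487 with the length trend removed and 492 with DESeq2. For the culture 2656 were called, against 1609 with DESeq2. The genes of the set 2-fold apart between Tfh-like and Th0 with Tox2 went to 0 with the length trend removed (1 otherwise). The culture fold of Ccnd2, which did not pass, changed sign to -0.058 with sum scaling and -0.047 with the length trend removed. The fold of Cdkn2d with Tox2 in Th0 was 0.04 with the length trend removed, against -0.12 to -0.07 under the other settings. The causes were not tested. Sum scaling moved the median of all genes for Tfh-like against Th0 with GFP to -0.106. Of the additive folds of the set under alternatives, 123 kept direction and side of the threshold, 2 changed sign (Ccnd2) and 3 (Ccnd3 with Tox2) passed newly. Of the pair folds 25 moved beyond their counting interval, all with sum scaling or the length trend removed, and 167 did not. Of the differences 1 moved and 47 did not (Ccnd2, -0.29 with the length trend removed). Across 10960 genes, Spearman's rho of fold with gene length was 0.301 for Tox2 in Th0 and 0.125 in Tfh-like, as a description. No paired analysis was possible because each group has 1 library and the labels carry no replicate numbers. No library was left out, since that leaves no residual degree of freedom.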
